A study of Mus musculus with 3 samples.

Results

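Cells chosen by genes of androgen-making theca, and stromal cells chosen by Tmem100, Hhip and related genes, were followed in whole ovaries of C57BL/6 female mice by single-cell RNA sequencing. The series has 3 libraries, 1 for each age: embryonic day 16.5, then postnatal days 7 and 14. Cells came from ovaries digested with collagenase, and a unique molecular identifier (UMI) stands for a captured mRNA molecule. The series asks how oestrogen receptors change in the granulosa lineage, and the cells described here surround those granulosa cells. A steroidogenic arm was chosen as the postnatal cells in which the androgen and progestin synthesis genes Cyp17a1, Cyp11a1 and Hsd3b1 together made at least 10 of every 10000 UMIs of the cell (10 CP10K). A second arm was chosen by Tmem100, Hhip, Osr2 and Enpep at a sum of at least 4 CP10K. It also had a steroidogenic sum under 10, the granulosa genes Inha, Amh, Hsd17b1 and Nr5a2 under 5, the endothelial genes Cldn5 and Cdh5 under 2, and 6 mitotic genes under 5 CP10K. Both arms together held 313 of the 1092 postnatal cells and of 1548 cells in all.

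The theca forms around growing follicles from ovarian stroma. Its steroidogenic cells answer luteinising hormone, import or build cholesterol and convert it to androgens, which granulosa cells turn into oestrogens. Granulosa cells in turn secrete Hedgehog ligands, and mesenchymal cells around the follicle carry the receptor Ptch1 and the pathway's target genes, among them Gli1 and Hhip, which encodes a Hedgehog-binding inhibitor.

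Between 456 and 583 cells per library passed a minimum of 200 detected genes, and the deposited barcodes of a library held 8743797 to 9065595 UMIs in all. The median kept cell had 12224 UMIs at postnatal day 7 and 11435 at postnatal day 14, and the 3 libraries shared 0 cell barcodes. With 1 library per age, no difference has a replicate check, age and library cannot be told apart, and no test was run. Values in brackets after a level or share are exact 95% intervals, for counting error only. Levels are summed UMIs of a group of cells per 1000000 (CPM). For counts over genes, a gene was called higher or lower where its log2 ratio of CPM + 10 was 2-fold or more, among genes with at least 10 UMIs in both groups together. The scale understates ratios of low genes, and the 19 genes that chose or bounded the arms were left out.

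Steroidogenic cells numbered 6 of 509 at postnatal day 7 (1.18%; 0.434 to 2.55) and 76 of 583 at postnatal day 14 (13.0%; 10.4 to 16.04). Cells of the other arm numbered 45 (8.84%; 6.52 to 11.7) and 186 (31.9%; 28.1 to 35.9). In the embryo the same criteria took 0 and 1 of 456 cells. These shares describe the selection, and the digestion and filtering of the tissue before capture can set them.

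Neither label held for all of its cells. The 76 steroidogenic cells at postnatal day 14 fell into 42 cells in which Amh, Hsd17b1 and Nr5a2, genes of granulosa cells, summed to at most 1.35 CP10K, and 34 cells in which they summed to between 5.02 and 31.3 CP10K, with a median of 10.1. No cell lay between, so a boundary of 3 CP10K, chosen after the values were seen, separated theca-like cells from granulosa-like cells of the steroidogenic arm. The granulosa-like cells entered through Hsd3b1, at 9.74 to 72.2 CP10K: 7 of 34 had a Cyp17a1 UMI, against 39 of 42 theca-like cells. In the second arm at postnatal day 14, Tmem100 was found in 177 of 186 cells, Osr2 in 146, Hhip in 74 and Enpep in 70. This arm is called the Tmem100/Hhip arm below for short, although Osr2 was found in more of its cells than Hhip. It too was heterogeneous: 62 cells were contractile by Acta2, Tagln, Myh11 and Rgs5 at a sum of 20 CP10K or more. Another 115 met every criterion of the comparison stroma apart from the 4 genes of the arm. The remaining members were in neither set and are counted only in the whole arm. Among them were the 2 members with a steroidogenic sum of 5 CP10K or more.

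**Figure D1:**
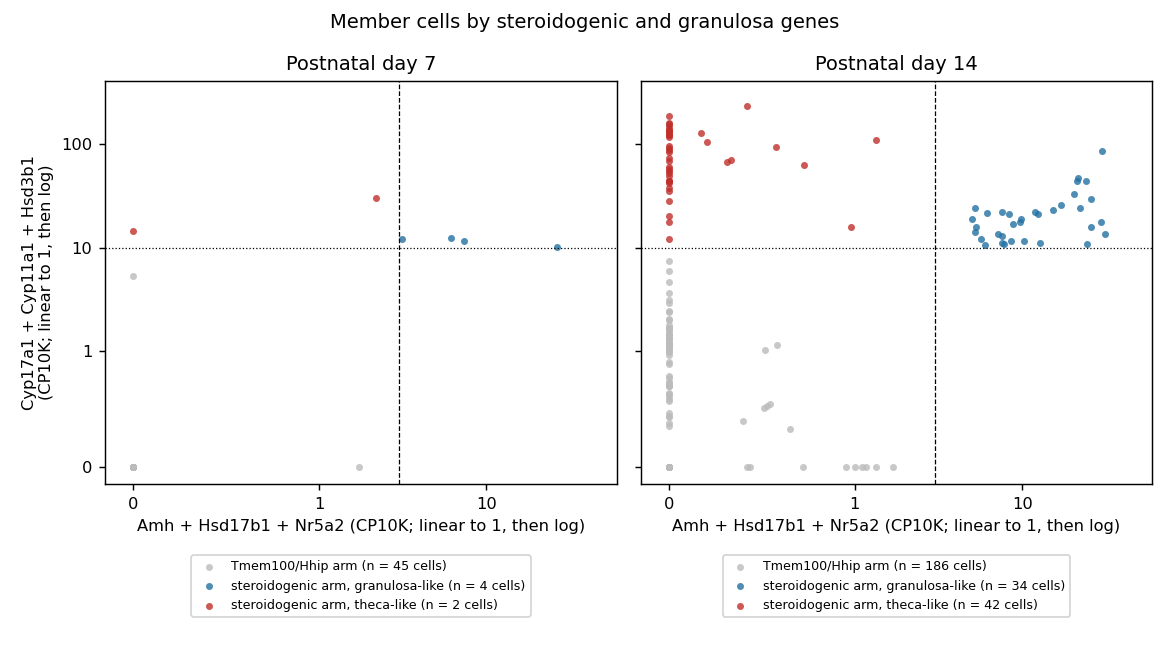
Each point is a member cell, placed by the sum of Amh, Hsd17b1 and Nr5a2 (x axis, CP10K) and of Cyp17a1, Cyp11a1 and Hsd3b1 (y axis, CP10K), at postnatal day 7 and postnatal day 14; both axes are linear to 1 and logarithmic above. The dotted line is the threshold of 10 CP10K and the dashed line the boundary of 3 CP10K. At postnatal day 14 the 42 theca-like cells lie at or below 1.35 on the x axis and the 34 granulosa-like cells at or above 5.02.

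Comparison groups came from the same libraries. The comparison stroma (169 cells at postnatal day 7, 101 at postnatal day 14) held at least 10 CP10K of Dcn, Lum, Col1a1, Col1a2, Pdgfra and Tcf21 and stayed under limits for the arms and for 7 other kinds of cells. The granulosa class held 52 and 40 cells, and the endothelial class, whose UMIs of theca genes give a background, 26 and 38. Cells near a threshold were not rare. The nearest steroidogenic sums inside and outside the limit were 10.49 and 9.88 CP10K at postnatal day 14. At postnatal day 7 they were 10.2 and 9.85 CP10K. Between 3 and 4 CP10K of the Tmem100/Hhip sum lay 33 cells at postnatal day 14, and 27 members lay between 4 and 5. Of the 244 cells with a sum of 4 or more at that age the other criteria left out 58, of which 44 were cycling.

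At postnatal day 14 the levels of Cyp17a1, Cyp11a1 and Hsd3b1, which chose the theca-like cells, varied widely from cell to cell. Cyp17a1, which makes androgen precursors, ranged from 0 over a median of 9.21 to 90.3 CP10K. Cyp11a1, the enzyme that cleaves the cholesterol side chain, ranged from 0 over 23.0 to 92.2, and Hsd3b1 from 1.66 over 42.9 to 78.5 CP10K. Cyp17a1 passed 10 CP10K in 21 of 42 cells and Hsd3b1 in 39. These 3 genes chose the cells, so their height is no result. Summed over the cells, Cyp17a1 was at 1584 CPM (1503 to 1668) in theca-like cells, 23.1 CPM (11.9 to 40.4) in granulosa-like cells of the arm, 2.16 CPM (0.700 to 5.03) in the Tmem100/Hhip arm and 7.41 CPM (2.98 to 15.3) in endothelial cells. In GRCm38 Cyp17a1 is on chromosome 19, 46667165 to 46673172, minus strand, with no overlapping gene in GENCODE M21.

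Genes of steroid synthesis that the rule did not use were high in the same cells. Star, which moves cholesterol into mitochondria, was at 164 CPM (139 to 193) in theca-like cells, 2.59 CPM (6 UMIs) in the Tmem100/Hhip arm, and at 0 UMIs in granulosa-like cells and comparison stroma. Against a floor of 3 UMIs over the group, it was at least 28.4-fold higher than in granulosa-like cells and at least 55.7-fold higher than in stroma. Fdx1 and Fdxr pass electrons to the mitochondrial enzymes. The Fdx1 level was 3161 CPM in theca-like cells, 108 CPM in the Tmem100/Hhip arm (29.3-fold; 25.8 to 33.5) and 152 CPM in granulosa-like cells. Fdxr stood at 373, 41.4 and 67.4 CPM in the same order. Por, which serves Cyp17a1 in the endoplasmic reticulum, was at 103, 32.8 and 19.3 CPM. Cyb5a, whose product favours the androgen-forming reaction of Cyp17a1, went the other way, at 195 CPM in theca-like cells against 1568 CPM in granulosa-like cells and 317 CPM in stroma. Hsd17b3, the testosterone-forming enzyme of the testis, was at 0 UMIs in theca-like cells (upper bound 4.09 CPM).

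**Figure D2:**
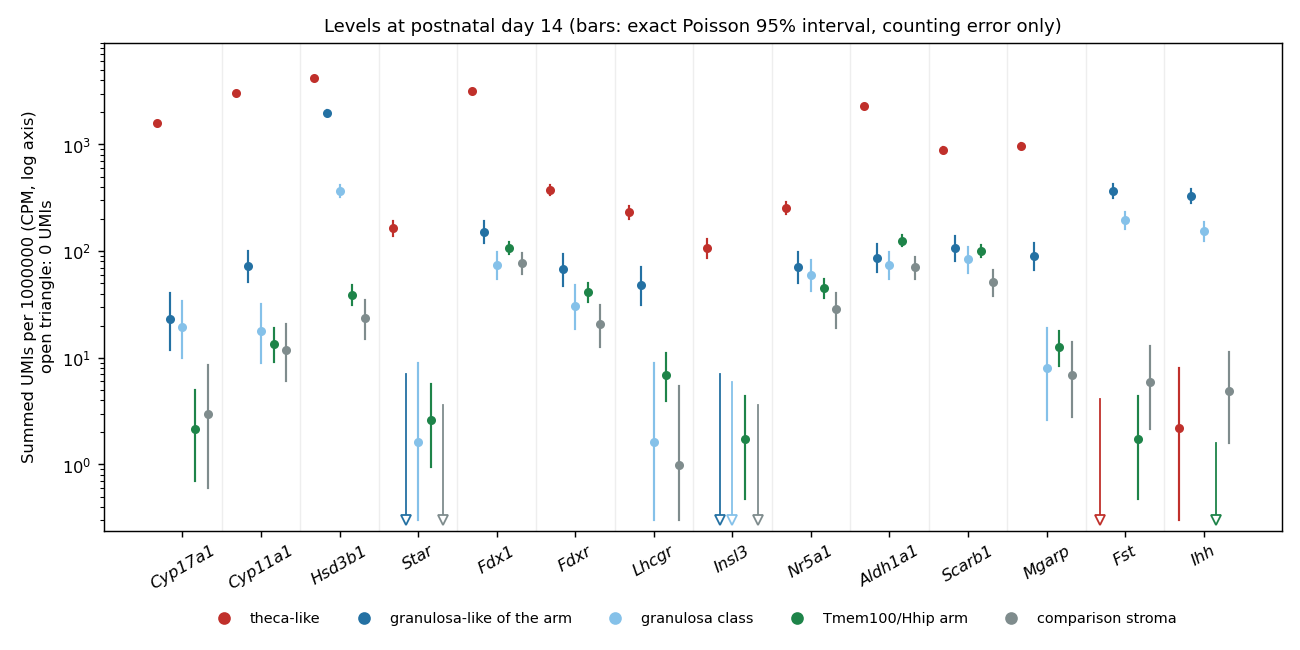
Summed UMIs per 1000000 (CPM, log axis) of 14 genes in 5 groups of cells at postnatal day 14; points are levels, bars exact Poisson 95% intervals for counting error, and open triangles mark 0 UMIs. Star, Fdx1, Lhcgr, Insl3 and Aldh1a1 are highest in theca-like cells, while Fst and Ihh are highest in granulosa-like cells of the arm (366 and 328 CPM).

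By gene count, 700 genes were higher (5.92% of 11834 tested) and 534 lower (4.51%) in theca-like cells than in the Tmem100/Hhip arm, and the median over all genes was a log2 ratio of 0.03. Of 14 measured steroid synthesis genes outside the rule 9 were higher and 2 lower, Cyp1b1 and Hsd11b2, with a median of 1.43. The 9 include Srd5a1, a 5-alpha-reductase (86.4 against 7.76 CPM), and Hsd3b6. Hsd3b6 is a close relative of Hsd3b1, so that counting may have split reads between them. The whole steroidogenic arm, granulosa-like cells included, had 747 genes higher (6.06% of 12327) and 454 lower (3.68%). Against the comparison stroma, 770 were higher (7.24% of 10641) and 717 lower (6.74%) in theca-like cells, and 752 (6.57% of 11441) and 575 (5.03%) in the whole arm.

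Most cholesterol genes were higher in theca-like cells. Of 30 measured genes of synthesis and supply 19 were at least 2-fold higher than in the Tmem100/Hhip arm and 0 lower; the median log2 ratio was 1.54, beside 0.03 for all genes. The synthesis genes Hmgcs1 and Fdps stood at 318 against 35.8 CPM (8.89-fold; 6.94 to 11.5) and 309 against 23.3 CPM (13.3-fold; 9.89 to 18.1). Scarb1, which takes up cholesterol from high-density lipoprotein, was at 883 against 100.1 CPM. Against granulosa-like cells of the arm, 10 of the 30 were at least 2-fold higher in theca-like cells and 0 lower, with a median of 0.69. Of all genes tested between these groups 6.52% were higher and 6.89% lower, with a median of −0.08. Between those groups Scarb1 was 8.19-fold apart (6.24 to 10.9), while Pmvk was 1.52-fold apart, with an interval of 0.803 to 3.04, and no difference was detectable at this depth.

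Promoters are shown for cholesterol genes of this set, since most of them were higher in the same cells. They are genes 2-fold or more higher in theca-like cells, and not every such gene was considered. Their 250 bases before the RefSeq start (build GRCm38.p6) overlap no annotated exon. Those bases hold CCAAT, the box bound by NF-Y, on either strand. Each sequence runs 5′ to 3′ in the direction of its gene, at chr13:119690101-119690350 (plus strand) for Hmgcs1, chr3:89454291-89454540 (plus) for Pmvk and chr9:42264301-42264550 (minus) for Sc5d. Capitals mark CCAAT or, where it lies on the other strand, ATTGG.
Hmgcs1: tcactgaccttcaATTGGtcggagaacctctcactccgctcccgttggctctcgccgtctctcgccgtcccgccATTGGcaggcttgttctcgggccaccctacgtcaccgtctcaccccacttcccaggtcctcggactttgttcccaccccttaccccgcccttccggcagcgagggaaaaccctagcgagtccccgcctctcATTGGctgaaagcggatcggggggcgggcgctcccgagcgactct
Pmvk: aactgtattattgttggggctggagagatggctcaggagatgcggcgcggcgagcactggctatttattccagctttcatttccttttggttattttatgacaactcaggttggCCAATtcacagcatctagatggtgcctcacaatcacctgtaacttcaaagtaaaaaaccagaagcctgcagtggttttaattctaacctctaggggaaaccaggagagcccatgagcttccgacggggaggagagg
Sc5d: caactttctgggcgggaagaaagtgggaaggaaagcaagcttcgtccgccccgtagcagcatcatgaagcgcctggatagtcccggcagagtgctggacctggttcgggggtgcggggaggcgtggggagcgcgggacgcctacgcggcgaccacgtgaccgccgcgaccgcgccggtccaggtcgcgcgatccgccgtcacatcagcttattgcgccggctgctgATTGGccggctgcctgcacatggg

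In Hmgcs1 the box begins 237, 176 and 45 bases before the start, in Pmvk 136 and in Sc5d 24 bases before it. RefSeq promoters were matched for 21 of the 30 cholesterol genes, and 18 of their 25 promoters held the box (72%), against 33.8% of all 32851 promoters of the same length. The sterol regulatory element TCACCCCAC, or its reverse, was in 0.496% of all promoters and in 1 cholesterol gene, Hmgcs1, where it begins 137 bases before the start. AAGGTCA, the core recognised by the receptor encoded by Nr5a1, was in 4.08% of all promoters and in 2 of the matched cholesterol genes. A match describes these letters only and shows no binding.

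Some receptors and secreted signals known from the theca were higher in theca-like cells, and others lower. Lhcgr, the receptor of luteinising hormone, was at 233 CPM (202 to 266) in theca-like cells and 6.90 CPM in the Tmem100/Hhip arm (33.7-fold; 20.3 to 60.1). Granulosa-like cells of the arm held it at 48.2 CPM (31.2 to 71.1), with a UMI in 12 of 34 cells. Insl3, a peptide hormone of theca and Leydig cells, was at 106 CPM (86.2 to 130) against 1.73 CPM, and at 0 UMIs in granulosa-like cells and stroma. It overlaps Jak3 on the same strand of chromosome 8, so reads between them are uncertain. Nr5a1, a master regulator of steroid enzymes, was at 253, 44.9 and 71.3 CPM in theca-like cells, the Tmem100/Hhip arm and granulosa-like cells. The prolactin receptor gene Prlr stood at 367, 17.3 and 46.2 CPM.

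Of 19 measured hormone and growth factor receptors 6 were higher in theca-like cells than in the Tmem100/Hhip arm and 6 lower. Kit, the receptor of the granulosa-derived kit ligand, was among the higher ones, at 65.4 CPM (49.8 to 84.3) against 1.73 CPM, and at 0 UMIs in granulosa-like cells. Of the oestrogen receptor genes, Esr1 was at 31.0 CPM in theca-like and 5.78 CPM in granulosa-like cells, and Esr2 at 1.11 CPM (1 UMI) and 88.6 CPM. The kit ligand gene Kitl was highest in granulosa-like cells (181 CPM; 146 to 222) but also found in theca-like cells (110 CPM; 89.2 to 134). The platelet-derived growth factor receptors Pdgfra and Pdgfrb and the endothelin receptors Ednra and Ednrb were lower. Of 16 theca signals 3 were higher, Insl3, Kitl and the vessel growth factor Vegfa (45.4 against 9.06 CPM), and 5 lower: Angpt2, Bmp4, Cxcl12, Cxcl14 and Igf1.

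Counted by cell after thinning each cell to 5000 UMIs, Cyp17a1 was found in 88.1% of theca-like cells (74.4 to 96.0; 92.9% unthinned) and Lhcgr in 35.7% (21.6 to 52.0; 83.3% unthinned). Endothelial cells, at a median of 21538 UMIs against 17383 in theca-like cells, had Cyp17a1 in 2.63% after thinning and in 18.4% before. In the Tmem100/Hhip arm, at a median of 10871.5 UMIs, 0 of 186 thinned cells had Cyp17a1 (upper bound 1.96%). Hsd3b1 was found in 10.2% of its thinned cells (6.26 to 15.5), against 21.1% of endothelial cells (9.55 to 37.3). The rule kept the sum of these enzymes under 10 CP10K in that arm, so its low values are no result.

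Genes outside the fixed lists that stood highest in theca-like cells over the Tmem100/Hhip arm include Cst8, a cystatin relative (578 against 3.02 CPM). Others were Mgarp, a mitochondrial protein gene (967 against 12.5 CPM), and the defensin relative Defb19 (626 against 17.7 CPM). Ren1, which encodes renin, was at 259 against 8.63 CPM and the potassium channel gene Kcnk3 at 248 against 6.47 CPM. Aldh1a1, an enzyme of retinoic acid synthesis, was at 2308 CPM (2210 to 2410) against 125 CPM, and every theca-like cell held it, at 3.97 to 58.1 CP10K. Over the 262 cells of both arms at postnatal day 14, the 5 genes most like Cyp17a1 among 4860 compared were Cyp11a1 (Spearman correlation 0.714), Mgarp (0.697), Defb19 (0.684), Pak3 (0.680) and Hsd3b1 (0.643). The cells share a library, and the contrast of the arms enters these values. Within the 42 theca-like cells the correlation of Cyp17a1 was 0.741 with Cyp11a1, 0.209 with Hsd3b1, 0.00478 with Aldh1a1 and 0.129 with UMIs per cell. Cyp17a1, Cyp11a1 and Hsd3b1 all enter the sum that chose the cells, so their correlations are a description of the members only.

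Stromal programmes were low in theca-like cells. All 8 stroma markers were at least 2-fold lower than in the Tmem100/Hhip arm, such as the proteoglycan Dcn (54.3 against 901 CPM), the collagen Col1a1 (21.1 against 668 CPM) and the transcription factor Tcf21 (17.7 against 492 CPM). Of 24 interstitial matrix genes 17 were lower and 1, fibronectin (Fn1), higher, at 187 against 56.1 CPM; the list's median was −1.77 on the log2 scale. Col1a2 was among the 8 stroma markers lower than in the Tmem100/Hhip arm. It was still at 577 CPM in theca-like cells, against 54.0 CPM in granulosa-like cells of the steroidogenic arm. Of 18 smooth muscle and pericyte genes 11 were lower and 0 higher. Of 10 Hedgehog pathway genes 4 were lower, among them Ptch1 (55.4 against 270 CPM; 4.86-fold, 3.64 to 6.63), Gli1 (6.65 against 36.7 CPM) and Gas1, and 1 was higher, the co-receptor Cdon (86.4 against 6.47 CPM). Gli1 overlaps Arhgap9 and Gm47200 on the other strand. Osr2, which chose the other arm, was about as high in theca-like cells, at 258 CPM (226 to 294) against 226 CPM (207 to 247), and 41 of 42 cells held it. Hhip was at 22.2 CPM (13.5 to 34.2) in theca-like cells and Tmem100 at 36.6 CPM (25.2 to 51.4), against 104 and 592 CPM.

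**Figure D3:**
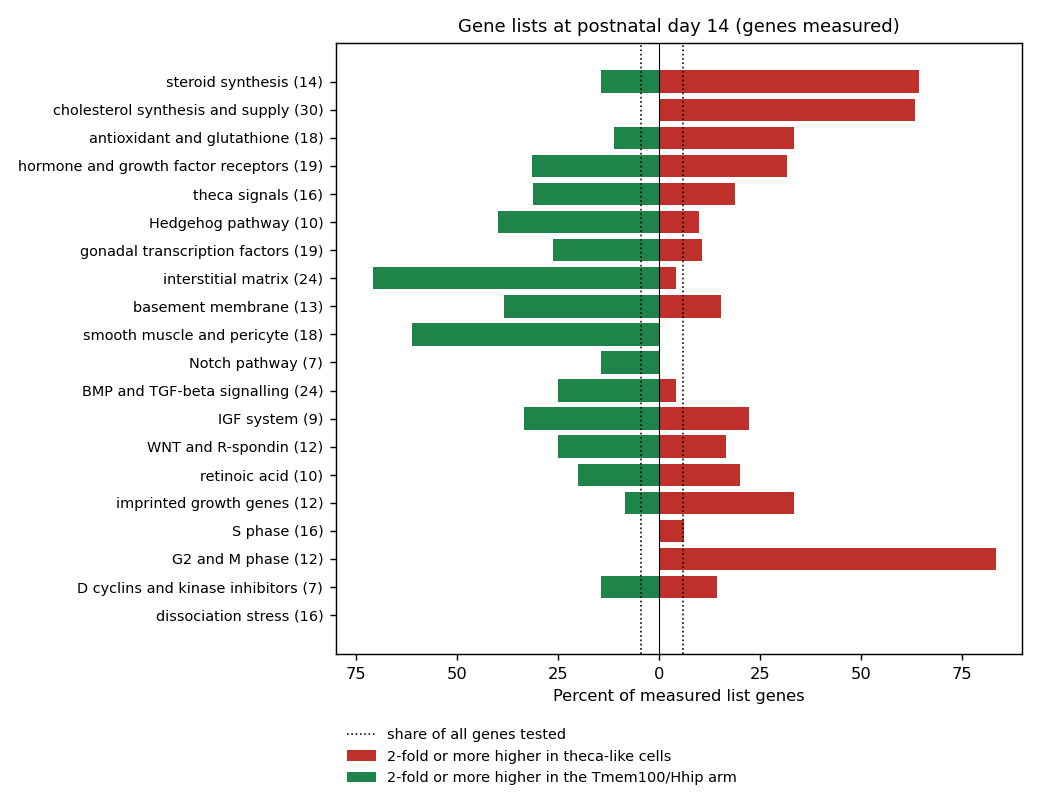
For 20 gene lists, bars give the percent of measured genes at least 2-fold higher in the 42 theca-like cells (right) or in the 186 cells of the Tmem100/Hhip arm (left) at postnatal day 14, with the number of genes measured in brackets. Dotted lines are the shares of all genes tested, 5.92% and 4.51%. Steroid and cholesterol genes extend to the right, interstitial matrix and smooth muscle genes to the left.

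Mitotic genes also stood apart, 10 of 12 G2 and M phase genes being higher in theca-like cells. The rule removed cycling cells from the Tmem100/Hhip arm but not from the steroidogenic arm, where 5 of 42 theca-like cells had 5 CP10K or more of the 6 mitotic genes. Markers of other cell types were counted in the same comparison. Of 8 measured immune markers 6 were lower in theca-like cells, where the list of 10 summed to 15.5 CPM against 220 CPM, and Ptprc, Csf1r, Cd52 and Laptm5 were at 0 UMIs. In the Tmem100/Hhip arm 3 of 186 cells held the immune genes Ptprc, Tyrobp and Fcer1g at 2 CP10K or more. Endothelial markers summed to 44.3 against 86.7 CPM, with 1 of 3 measured lower, and Tie1 and Flt1 at 0 UMIs in theca-like cells. Of the granulosa markers Fst, Fshr and Cyp19a1 were at 0 UMIs in theca-like cells and Amh at 2.22 CPM. Inha was at 1461 CPM, from 0.455 over a median of 7.30 to 55.0 CP10K, and passed 5 CP10K in 26 of 42 cells; it encodes inhibin alpha. The gap junction gene Gja1 was at 569 against 90.6 CPM. The adrenal cortex also makes steroids and lies near the ovary: of its markers Mrap was at 95.3 CPM, Akr1b7 at 12.2 CPM (11 UMIs), Cyp21a1 at 4.43 CPM (4 UMIs) and Mc2r at 1 UMI, while Cyp11b1 and Cyp11b2 were at 0. The median mitochondrial share was 1.51% in theca-like cells and 0.851% in the Tmem100/Hhip arm. The part of these differences in the results was not tested.

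Granulosa-like cells of the steroidogenic arm carried granulosa genes. Inha ranged from 7.46 over 78.3 to 322 CP10K among the 34 cells and summed to 9152 CPM. It was at 2439 CPM in the granulosa class, which was taken without the arms. Inha helped to choose that class, by a sum with Amh, Hsd17b1 and Nr5a2 of 5 CP10K or more. The choice of cells thus enters the Inha difference. Hsd3b1 was at 1979 CPM (1860 to 2104) in granulosa-like cells and 370 CPM (324 to 421) in the granulosa class, a difference that the rule set. Compared with them, theca-like cells had 642 genes higher (6.52% of 9853 tested) and 679 lower (6.89%), and the median over all genes was a log2 ratio of −0.08. All 8 granulosa markers outside the rule were lower in theca-like cells. Fst, which encodes the activin-binding follistatin, was at 0 UMIs against 366 CPM, at least 110-fold lower than in granulosa-like cells against the floor of 3 UMIs. The activin subunit genes Inhba and Inhbb stood at 14.4 against 933 CPM and 4.43 against 418 CPM. Ihh, a Hedgehog ligand, was at 2.22 CPM (2 UMIs) against 328 CPM, and the aromatase gene Cyp19a1 at 0 UMIs against 54.0 CPM (35.8 to 78.0). Within the arm, Ihh and Cyp19a1, which chose no cells, were higher in the granulosa-like set. That set was split off by other granulosa genes. Cyp17a1, higher in theca-like cells, helped to choose the arm, so its height is no result.

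Higher in theca-like than in granulosa-like cells were Sct, the peptide hormone secretin (566 against 7.71 CPM; 73.5-fold, 28.5 to 271), Smoc2, a matrix protein gene (453 against 3.85 CPM), and Vcam1, an adhesion molecule gene (143 against 1.93 CPM). Of 12 basement membrane genes 7 were higher and 0 lower, among them Col4a1 (95.3 against 11.6 CPM). Stroma markers were higher in 3 of 8 cases, Col1a2, Pdgfra and Tcf21. The transcription factor gene Nr2f2, found in ovarian stroma, was at 198 against 40.5 CPM, and Gata6 went the other way, at 8.87 against 225 CPM. Granulosa-like cells had a median of 11359 UMIs against 17383 in theca-like cells, and no Star or Insl3 UMI. No doublet caller was run, and the part of doublets in either set was not tested.

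The 6 steroidogenic cells of postnatal day 7 are too few for a comparison across genes, so their values are given. None had a Cyp17a1 UMI, and all passed through Hsd3b1, at 10.2 to 30.3 CP10K. In 2 cells Amh, Hsd17b1 and Nr5a2 stayed under 3 CP10K, but the boundary was not empty at this age: the nearest cells lay at 2.20 and 3.12 CP10K. The first of these held Hsd3b1 at 30.3, Star at 1.76, Lhcgr at 0.878, Insl3 at 0.439, Nr5a1 at 2.63, Hhip at 2.63 and Aldh1a1 at 9.22 CP10K. The second held Hsd3b1 at 13.4, Cyp11a1 at 1.05, Insl3 at 0.791 and Aldh1a1 at 16.6 CP10K, with mitotic genes at 39.8 CP10K. The other 4 were granulosa-like, with Inha at 8.33 to 58.8 CP10K and Aldh1a1 at 0.817 to 3.09 CP10K. Both theca-like cells thus had more Aldh1a1 than the 4 others, and neither had Cyp17a1.

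The Tmem100/Hhip arm had stromal genes, and its level of the Hedgehog receptor and target gene Ptch1 was above that of comparison stroma. At postnatal day 14 its Tmem100 level, of a gene induced by bone morphogenetic protein signalling in vessels, was 592 CPM (561 to 624) against 122 CPM in comparison stroma, and at postnatal day 7 it was 392.4 CPM (342 to 448) against 51.5 CPM. Tmem100 lies on chromosome 11 of GRCm38, 90030348 to 90036508, plus strand. The Hhip level was 104 and 6.87 CPM in the arm and in stroma at postnatal day 14 and 117 and 12.3 CPM at postnatal day 7. Enpep, the peptidase aminopeptidase A, was at 59.5 and 4.91 CPM at postnatal day 14. These genes chose the arm and bounded the stroma. Ptch1 did neither: it was at 270 CPM (249 to 292) against 127 CPM (106 to 150) at postnatal day 14, and at 254 CPM (214 to 299) against 143 CPM (126 to 162) at postnatal day 7. In the cells meeting the stroma criteria the Ptch1 ratio to stroma was under 2-fold, 1.76 (1.42 to 2.18) at postnatal day 14 and 1.71 (1.37 to 2.12) at postnatal day 7. Gli1 was at 36.7 CPM (29.3 to 45.3) against 23.6 CPM (15.1 to 35.1), with intervals that overlap, and at 33.7 against 26.9 CPM at postnatal day 7. Gas1, a Hedgehog co-receptor, was lower in the arm at both ages, at 49.2 against 101 CPM and 74.6 against 195 CPM.

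Contractile cells and cells meeting the stroma criteria differed within the arm at postnatal day 14. Contractile cells had 85 genes higher (0.807% of 10528 tested) and 18 lower (0.171%). Of 18 smooth muscle and pericyte genes 13 were higher, 3 of which helped to choose these cells: Acta2 (4055 against 487 CPM), Tagln (1031 against 71.3 CPM) and Myh11 (210 against 10.8 CPM). Others that did not choose them were the enteric actin Actg2 (300.2 against 13.2 CPM) and calponin, Cnn1 (113 against 3.10 CPM). Hhip was at 169 CPM (143 to 198) in contractile cells and 49.6 CPM (38.2 to 63.3) in cells meeting the stroma criteria. A UMI of Hhip was found in 42 of 62 and 26 of 115 cells. After thinning these shares were 48.4% (35.5 to 61.4) and 13.9% (8.17 to 21.6), against 2.97% of comparison stroma and 2.63% of endothelial cells. Ptch1 was at 350 CPM (312 to 392) and 222 CPM (197 to 250), and Tmem100 at 572 and 645 CPM. Ptch1, which had no part in choosing the arm, was thus higher in contractile cells. Hhip and Tmem100 enter the same sum, so a member low in one needs more of the others, and their contrast is a description.

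**Figure D4:**
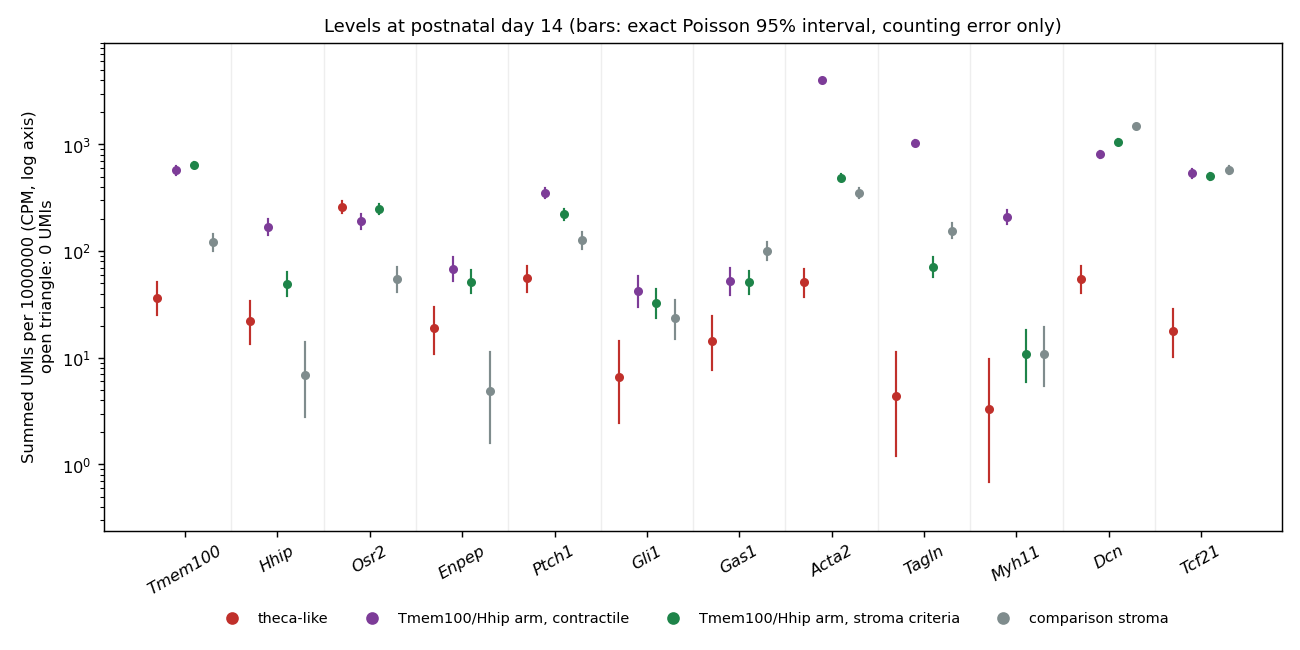
Summed UMIs per 1000000 (CPM, log axis) of 12 genes in theca-like cells, both sets of cells of the Tmem100/Hhip arm and comparison stroma at postnatal day 14; points are levels, and bars exact Poisson 95% intervals for counting error. Of the groups shown, contractile cells have the highest Hhip, Ptch1, Acta2, Tagln and Myh11. Osr2 is about level in theca-like cells and in cells meeting the stroma criteria (258 and 250 CPM).

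Over the same 262 cells the 5 genes most like Hhip were Acta2 (Spearman correlation 0.476), Ptch1 (0.461), Nhsl2 (0.450), Wfdc1 (0.446) and the myosin light chain gene Myl9 (0.428). Hhip helped to choose the Tmem100/Hhip arm, so the contrast of the arms enters these values too. They are a description of the members only. Ednrb, an endothelin receptor, and Agtr2, an angiotensin receptor, were the 2 of 17 hormone and growth factor receptors higher in contractile cells; Agtr2 was at 49.1 against 15.5 CPM. Npr1, the receptor of atrial natriuretic peptide, was lower, at 26.2 against 82.1 CPM, and the imprinted gene Dlk1 was also lower.

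Against comparison stroma, the whole Tmem100/Hhip arm differed by few genes. At postnatal day 14, 63 were higher (0.537% of 11731 tested) and 54 lower (0.46%), and at postnatal day 7, 79 higher (0.723% of 10921) and 125 lower (1.14%). The stroma was limited to low Acta2, Tagln, Myh11 and Rgs5, so contractile genes such as Actg2 lead the arm's higher genes at postnatal day 14 by construction. In cells meeting the stroma criteria 22 were higher (0.205% of 10734) and 78 lower (0.727%) at postnatal day 14, and 58 higher (0.536% of 10828) and 180 lower (1.66%) at postnatal day 7. Their median was 9636 UMIs against 8543 in stroma at postnatal day 14, and 11824.5 against 8312 at postnatal day 7. The part of depth in these counts was not tested. Cells meeting the stroma criteria had more mRNA of the transcription factor Mycn, at 71.3 against 20.6 CPM at postnatal day 14 and 108 against 47.1 CPM at postnatal day 7. They had less of Wt1, a gonadal transcription factor, at 67.4 against 172 CPM and 76.3 against 207 CPM, and less of the chemokine gene Cxcl12, at 74.4 against 189 CPM and 141 against 382 CPM. Sct was higher in these cells at both ages, at 24.8 CPM (17.0 to 35.0) against 5.89 CPM at postnatal day 14 and at 160 CPM (128 to 199) against 35.8 CPM at postnatal day 7.

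For some genes the values of the arm and stroma stood differently at the 2 ages. Dlk1, which inhibits differentiation, was at 55.0 against 11.8 CPM at postnatal day 14, and at 339 against 645 CPM at postnatal day 7, the opposite order. Id1, a target of bone morphogenetic proteins, was at 123 against 43.7 CPM at postnatal day 7 and at 86.0 against 92.3 CPM at postnatal day 14. These differences between the ages were not tested. Apoe, a lipid carrier, led the whole arm at postnatal day 7, at 881 against 190 CPM, but was at 235 CPM in the cells meeting the stroma criteria. Immune markers moved with it: 8 of 8 measured were higher in the whole arm, summing to 506 against 30.2 CPM, and 1 of 45 cells held immune genes at 2 CP10K or more. At postnatal day 14 they were higher in 6 of 9 cases, at 220 against 31.4 CPM. In the cells meeting the stroma criteria, which exclude immune genes, the sums were 33.3 CPM at postnatal day 7 and 11.6 CPM at postnatal day 14. The part of immune RNA in the other differences of the whole arm was not tested.

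In the Tmem100/Hhip arm and in comparison stroma alike, 7 imprinted growth genes, among them Dlk1 and Meg3, were lower at postnatal day 14 than at postnatal day 7, and Cxcl14 and Nupr1 were higher. In the whole arm 117 genes were higher (1.03% of 11337 tested) and 103 lower (0.909%) at postnatal day 14, and in cells meeting the stroma criteria 130 (1.31% of 9950) and 128 (1.29%). In comparison stroma of the same libraries these counts were 113 (0.989% of 11424) and 107 (0.937%). In the whole arm, 9 of 18 smooth muscle genes were higher at postnatal day 14, where 62 of 186 cells were contractile against 4 of 45. In cells meeting the stroma criteria 0 of 11 smooth muscle genes were higher. These criteria limit the sum of Acta2, Tagln, Myh11 and Rgs5 at both ages, so the choice of cells constrained this count. The values below are from cells meeting the stroma criteria, with stroma beside them.

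Imprinted growth genes, several of which are widely switched off in postnatal organs, were lower in 7 of 12 cases, with 0 higher and a median log2 ratio of −1.24. The 7 were Cdkn1c, Dlk1, H19, Meg3, Mest, Plagl1 and Rian. In comparison stroma 7 of 13 were lower, with a median of −1.19. Dlk1 was at 339 CPM at postnatal day 7 and 55.0 CPM at postnatal day 14 in the arm, and at 645 and 11.8 CPM in stroma. The noncoding RNA gene Meg3 was at 460 and 70.5 CPM in the arm and at 1110 and 179 CPM in stroma. Postn, a matrix protein gene, was at 102 and 10.1 CPM in the arm and at 71.7 and 7.85 CPM in stroma. Both groups of cells thus differed in the same direction for these 3 genes.

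Igf1, insulin-like growth factor, was lower in the arm at postnatal day 14, at 92.2 CPM (76.4 to 110) against 286 CPM (241 to 336), and in stroma at 121 against 246 CPM. Of 16 S phase genes 6 were lower in the arm, Cdt1, Mcm3, Mcm5, Mcm6, Rrm2 and Uhrf1, and 2 in stroma. Higher at postnatal day 14 was Cxcl14, a chemokine gene, at 220 CPM against 17.6 CPM in the arm and at 442 against 24.6 CPM in stroma. The stress-response gene Nupr1 was at 109 against 9.78 CPM in the arm and at 274 against 39.2 CPM in stroma. Bmp4 was at 41.8 CPM (54 UMIs) against 7.83 CPM (4 UMIs), and at 42.2 against 14.0 CPM in stroma. Aldh1a1 was at 124 CPM (106 to 145) against 47.0 CPM (30.1 to 69.9) in the arm and at 70.7 against 56.6 CPM in stroma, where the intervals overlap; the difference between the arm and stroma was not tested. Hedgehog pathway genes past 2-fold between the ages were 0 of 10 in both, and Ptch1 in the arm was at 222 and 245 CPM.

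**Figure D5:**
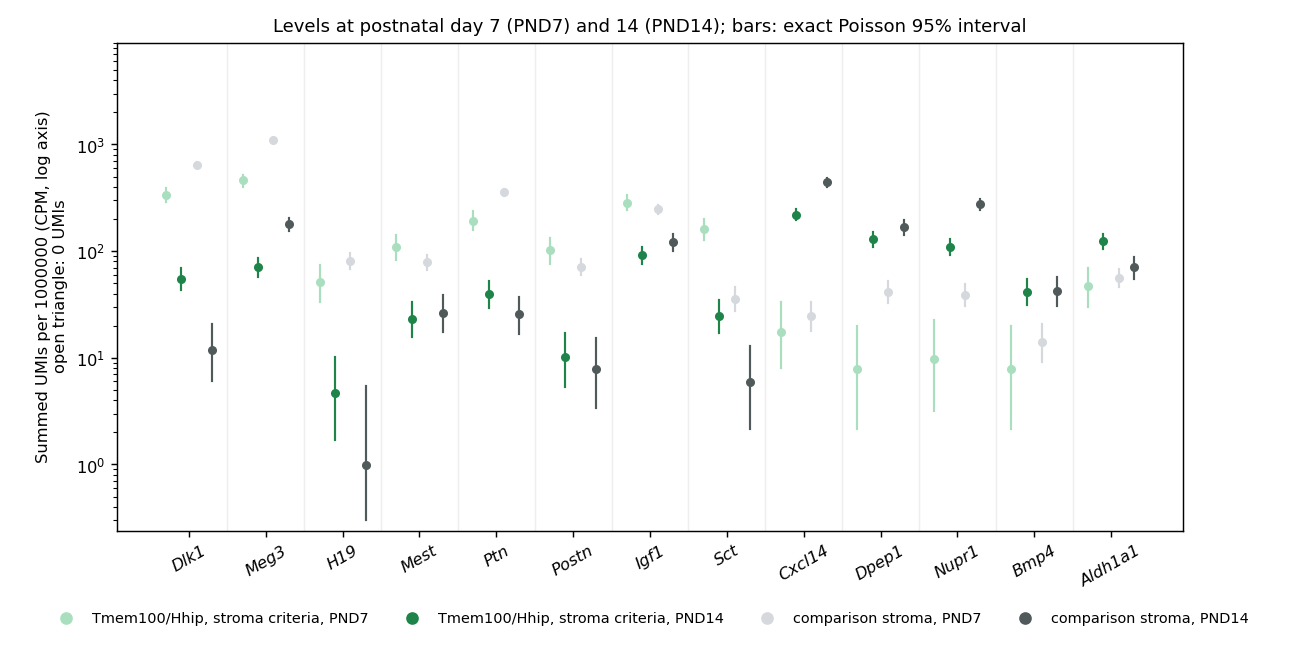
Summed UMIs per 1000000 (CPM, log axis) of 13 genes at postnatal days 7 (pale) and 14 (dark), in cells of the Tmem100/Hhip arm that meet the stroma criteria (green) and in comparison stroma (grey); bars are exact Poisson 95% intervals for counting error. Dlk1, Meg3, H19, Mest, Ptn and Postn are lower and Cxcl14, Dpep1, Nupr1 and Bmp4 higher at postnatal day 14 in both groups.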

How the data were processed

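Whole-ovary cells of 3 ages were captured in droplets and their libraries sequenced together on 1 lane, per the labels' protocols; the title of the embryo library gives day 17. The deposited count tables, made by the authors with Cell Ranger 2.1.1 on GRCm38 per the submitters' processing notes, hold raw UMI counts for 53465 genes. Settings for annotation and cell calling: not given in the sources used here. Some genes are not reported here. Nothing in the labels says how many animals each library pools. Cells with at least 200 genes were kept (456, 509 and 583). Classes were set by CP10K thresholds, UMIs were summed per class, and levels carry exact Poisson intervals, ratios exact conditional binomial intervals and shares Clopper-Pearson intervals (Python 3.11.15, SciPy 1.17.1). Log2 ratios and counts of genes past 2-fold use a pseudocount of 10 CPM, and fold values with their intervals use none. The formulas for ratios and their intervals were tested on simulated data with known fold changes. The counts of genes past 2-fold were not tested in this way. Genes outside the lists were named by rule: the 12 with the largest log2 ratio in each direction of a comparison, with at least 50 UMIs and a UMI in 25% of the cells of the higher group and intervals that do not overlap, leaving out genes of the rule and mitochondrial, ribosomal, haemoglobin and predicted genes. The text gives some of these; other genes come from the lists. The members, lists and thresholds were chosen with earlier results of these data known. Splits of both arms, and the comparisons that use them, were chosen after seeing the data. Alternatives changed thresholds, pseudocount, gene filter, scaling and excluded cells.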

Additional observations from a re-analysis of the deposited data

Results flagged for a closer look

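The embryonic library entered no comparison, yet it held UMIs of the genes that chose the cells, above the 3 UMIs (0.335 CPM) that a count of 0 allows. Cyp17a1, Cyp11a1 and Hsd3b1 summed to 77 UMIs in 42 of 456 cells (8.59 CPM; 6.78 to 10.7). Of these, 67 were Hsd3b1, 8 Cyp11a1 and 2 Cyp17a1, and the highest cell reached 9.69 CP10K. Tmem100, Hhip, Osr2 and Enpep summed to 71 UMIs in 52 cells (7.92 CPM; 6.19 to 9.99), of which 41 were Osr2 and 4 Hhip. Aldh1a1 had 770 UMIs in 120 cells (85.9 CPM; 79.9 to 92.2), Star 27, Lhcgr 14 and Insl3 1. The identity of these cells was not examined.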

How the results depend on the processing

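No paired analysis was possible because each age has 1 library, and no result comes from a test. All 187 alternatives for single genes kept the sign of the log2 ratio, but 19 moved it. With theca-like cells only, Inhba against the Tmem100/Hhip arm went from 4.24 to 0.36. With the stroma criteria, Acta2 between the ages went from 1.52 to 0.04, Acta2 against stroma at postnatal day 14 from 2.34 to 0.45, and Apoe against stroma at postnatal day 7 from 2.16 to 0.29. These criteria limit Acta2 itself, so the choice of cells constrained its values. Of 86 alternatives for counts 58 stayed within 1.5 times of the main value. The steroidogenic arm at postnatal day 7, 6 cells as reported, held 17 at a threshold of 5 CP10K, 1 at 20 CP10K, 1 with the exclusions of the other arm applied and 2 as theca-like cells; at postnatal day 14, 76 became 14 with those exclusions and 42 as theca-like cells. The Tmem100/Hhip arm at postnatal day 7, 45 cells, held 93 at a threshold of 2 CP10K and 16 at 8 CP10K; at postnatal day 14, 186 became 106 at 8 CP10K and 115 meeting the stroma criteria. A pseudocount of 1 CPM gave 1818 genes higher and 1196 lower for the steroidogenic against the Tmem100/Hhip arm, 1791 and 1142 against stroma, 926 and 622 for the Tmem100/Hhip arm between the ages and 390 and 1011 against stroma at postnatal day 7; for postnatal day 14 it gave 493 and 498. Stricter thresholds gave 445 and 286 between the ages, 183 and 664 against stroma at postnatal day 7 and 141 lower at postnatal day 14. With the exclusions, genes lower in the steroidogenic arm were 784 against the other arm and 1012 against stroma. The stroma criteria left 22 higher at postnatal day 14. Stricter thresholds and exclusions leave fewer cells, and a smaller pseudocount lets genes with few UMIs pass; other causes were not tested. Depth limits values that rest on few UMIs, such as Gli1 in theca-like cells (6 UMIs), and the 6 steroidogenic cells of postnatal day 7.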
